A study of Arabidopsis thaliana with 8 samples.

Results

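The 200 probe sets described here are the most strongly hybridised nuclear transcripts of developing Arabidopsis thaliana leaves, accession Col-0, out of 22654 eligible probe sets on the ATH1 array, an Affymetrix chip on which each probe set targets a single transcript or several similar ones. They were chosen by mean signal over all 8 arrays, after control probe sets, probe sets that the gene tables place on the chloroplast or mitochondrial genome and 15 further probe sets had been left out. Of those left out, 18 organelle probe sets and 11 of the 15 had a higher mean signal than the lowest member. Because signal chose the members, their level and rank are given as description. The difference between the groups of arrays played no part in the choice. Signal also depends on the probes of each probe set, so the order is an order of signals and not of transcript numbers.

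A growing leaf cell spends much of its messenger RNA on a small set of proteins that it needs in bulk. Ribosomes are one of these demands: each has a large and a small subunit built from many different proteins, and in plants most of these proteins are encoded by small families of near-identical nuclear genes. The acidic stalk proteins of the large subunit recruit the elongation factors that drive translation. In a green leaf, chloroplast proteins encoded in the nucleus, such as those of the thylakoid membranes, are a further large demand.

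All samples were leaves at insertions 19 to 21, taken at the 0 h time point, and the growth room had 10 h of light, 20 °C and 50% humidity. The 4 samples of the elevated group came from plants kept in elevated CO2. Only the label of elevated replicate 1 gives the level (750 ppm) and a time of adjustment in the cuvette (24 h), and the text for elevated replicate 4 leaves out the word CO2. The other 4 samples, called not elevated, are those whose labels do not name elevated CO2. The title of not-elevated replicate 1 carries a code that the other 3 of its group lack, and its label says A where theirs say control. The description of growth names a normal atmosphere for all 8 samples. Whether replicates were separate plants is not in the labels, so the p-values rest on a spread between arrays that may be technical only. Not-elevated replicate 2 stood apart, with the lowest of the 8 signals in 181 of the 200 members, and differences are given below with it and, where that moves them by over 1.5 times or turns their sign, also without it.

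The label "nuclear" could be checked for 71 of the 200 members. The gene tables give 1 gene for 59 of them and several genes for 12, all on chromosomes 1 to 5, and no gene for 129 (64.5%, against 38.4% of all 22746 probe sets that are not controls). The 129 are described by signal only, and functions below cover the 59. The 59 do not stand for the whole 200. The members with 1 gene lie on chromosome 1 (11 genes), 2 (13), 3 (18), 4 (8) and 5 (9). Of the leaf mesophyll markers fixed for this work, 0 of 13 are named on the array by the tables, so the tissue could not be checked. Only 1 of 7 epidermal and 1 of 9 root markers were found, and their readings are given as description. FAMA (FMA in the tables, AT3G24140), a factor of guard cell formation, read 63.4 ± 7.43 units in the elevated group and 62.0 ± 12.5 units in the not-elevated group (SD, n = 4 each). EXPA7, an expansin of root hairs, read 24.9 ± 11.5 units in the elevated group and 27.6 ± 1.90 units in the not-elevated group.

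The probe set of highest signal ranked first on all 8 arrays and has no gene in the tables. It read 5514, 4504, 4734 and 5419 units in elevated replicates 1 to 4, against 4291, 3274, 4651 and 4742 units in not-elevated replicates 1 to 4, and the groups overlapped. Its log2(signal + 10) difference of 0.26 (elevated minus not elevated) was 0.14 without not-elevated replicate 2, and 0.0 after quantile normalization, by construction, since that method gives the first rank of every array the same value.

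Mean signals of the members ran from 1785 to 4641 units, with a median of 2410 units, on arrays whose trimmed mean is 100 units. At the edge of the choice the members ranked 199 and 200 averaged 1796 and 1785 units, and the first probe set outside averaged 1785 units, within 1 unit of the last member. Together the 200 held 16.7% ± 0.529 of the summed signal of an elevated array and 15.8% ± 1.15 of that of a not-elevated array (SD, n = 4 each). In single arrays this share was 16.7%, 16.2%, 16.5% and 17.4% in elevated replicates 1 to 4, against 16.4%, 14.1%, 16.6% and 16.2% in not-elevated replicates 1 to 4. The groups overlapped, and not-elevated replicate 2 was the lowest.

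Membership of the 200 was stable, while ranks within it shifted between arrays. Choosing the 200 from the elevated arrays alone and from the not-elevated arrays alone gave lists that shared 189 probe sets (94.5%). On every one of the 8 arrays 166 members were within that array's own top 200, 29 were on 4 to 7 arrays and 5 on fewer than 4, among them AT5G16130 (2 arrays) and AT2G44120 (3 arrays), both ribosomal, and 3 with several genes or none. The lowest rank that any member took on any array was 297, and the first 20 members never ranked below 41. Over the 8 arrays the ranks of a member spanned a median of 53 places. Across the 200 members, which share arrays and scaling, the group means correlated with Spearman's rho of 0.949.

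By function, 39 of the 59 members with 1 gene encode proteins of the cytosolic ribosome: 21 of the large subunit, 14 of the small subunit and 4 of its acidic stalk. A further 2 belong to the large subunit of the chloroplast ribosome, 4 to chloroplast membranes and pigment synthesis, 5 to metabolism and redox, 4 to the cell surface or secreted families, and 2 are a translation factor subunit and a chaperone. No role is given here for 3, ECS1, AT2G25510 and AT3G22240. These roles are background knowledge of the loci, since the tables give a symbol other than the locus for 5 of the 59.

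The stalk protein gene AT3G09200 had the highest signal of the ribosomal members with 1 gene. It read 3606, 3181, 3256 and 3847 units in elevated replicates 1 to 4, against 2939, 2645, 3381 and 3154 units in not-elevated replicates 1 to 4. The groups overlapped through not-elevated replicate 3. AT3G49910, of the L26 family in the large subunit, read 3053, 3023, 3254 and 3486 units in the elevated replicates and 2820, 2422, 3340 and 3179 units in the not-elevated ones. AT5G20290, of the S8 family in the small subunit, read 2897, 3046, 2768 and 3019 units in the elevated arrays, against 2876, 2155, 2966 and 2995 units in the not-elevated arrays. In both genes not-elevated replicate 2 was the lowest array, and in AT3G49910 not-elevated replicate 1 also lay below all the elevated arrays. Among chloroplast proteins AT4G01150 (CURT1A), which shapes the curved edges of thylakoid stacks, read 2648, 2667, 2856 and 2908 units in the elevated replicates, against 2788, 2055, 2576 and 2907 units in the not-elevated ones. ECS1 had the highest mean signal of a member with 1 gene, 3603 ± 386 units in the elevated group and 3318 ± 304 units in the not-elevated group (SD, n = 4 each). Its log2 difference was 0.12, and 0.052 without not-elevated replicate 2.

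**Figure D1:**
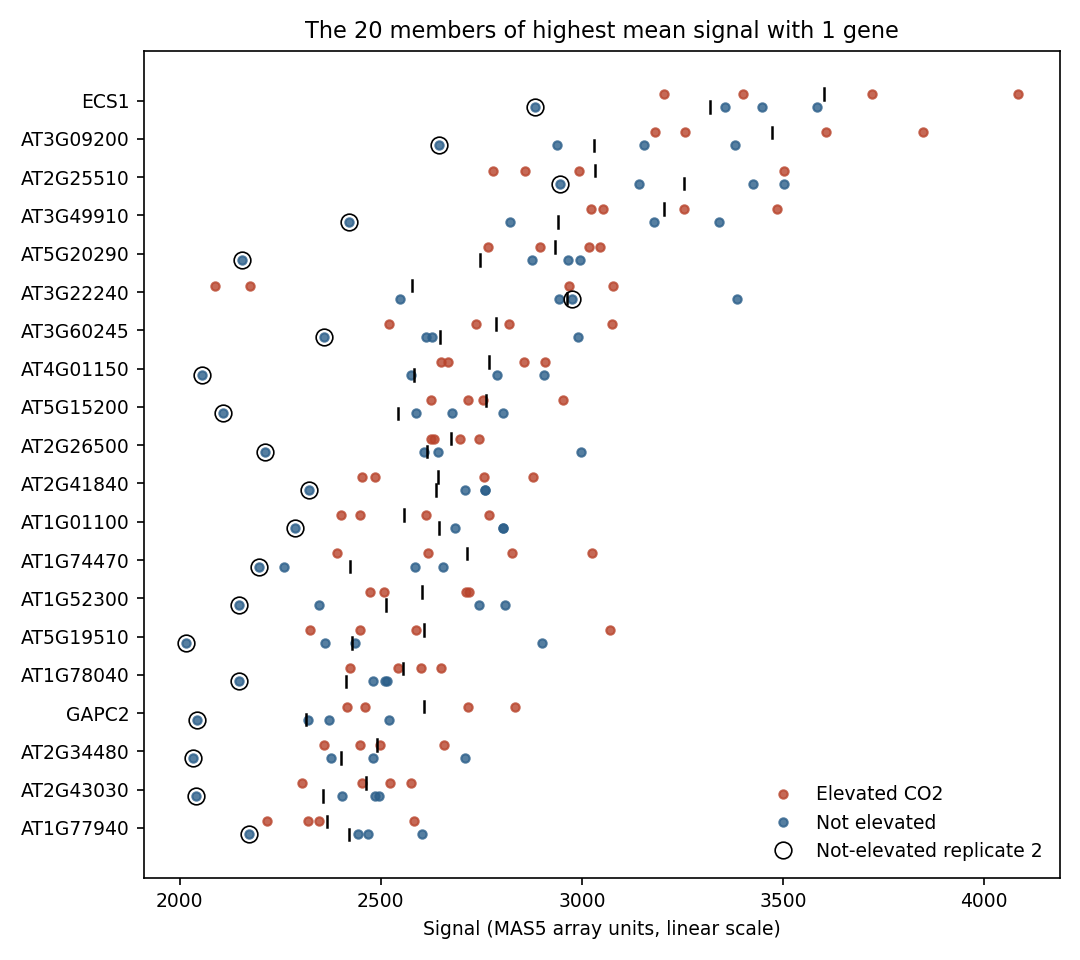
Signal in MAS5 array units (x axis, linear) of the 20 members of highest mean signal that have 1 gene, with each array as a point, the elevated group in the upper row and the not-elevated group in the lower row of each gene, group means as black ticks, and not-elevated replicate 2 circled. The groups overlap in all 20 genes, and the circled array is the lowest not-elevated array in 19 of them.

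The comparison asks whether the most abundant messages differ between the elevated and the not-elevated group. None of the 200 members passed limma's adjusted p of 0.05 over all 15296 probe sets tested, where 0.314% of all tested did. The smallest adjusted p of a member was 0.113 (limma). At an unadjusted p under 0.05 were 20 members (10.0%), against 11.1% of all tested. The 2 groups did not overlap in 7 members (3.50%), against 6.11% of all tested. All 7 were higher in the elevated group, a direction found in 2.90% of all tested, and 0 were lower, a direction found in 3.22%. After quantile normalization the groups did not overlap in 9 members (4.5%, against 6.22% of all tested), of which 3 were higher and 6 lower. These 9 are not the same set as the 7, so the split of directions in the count depends on the scaling. These member shares lie near or below those of the array as a whole. In RNA from whole leaves, a change in the number of cells of a type and a change of RNA per cell cannot be told apart.

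Differences were small as well as uncalled. On the log2(signal + 10) scale they ran from -0.30 to 0.38 (elevated minus not elevated), 96 of the 200 were under 0.1 in size, 11 were over 0.25 and 0 over 0.5. The median SE of a member's difference was 0.095. A p above the threshold does not show that the levels were equal, and differences of the size of this SE could not be seen with 4 arrays in a group. The median size of the difference was 0.10 under the deposited scaling, the same as the 0.10 of all probe sets tested. After quantile normalization it was 0.044 for the members and 0.101 for all tested.

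The members had a common direction that depended on 1 array. Of the 200, 175 were higher in the elevated group, with a median log2 difference of 0.10, against a median of 0.0013 and 50.4% higher over all tested probe sets. The median deviation of the members from their own 8-array mean was 0.039, -0.012, 0.034 and 0.12 in elevated replicates 1 to 4, and 0.025, -0.26, 0.038 and -0.0051 in not-elevated replicates 1 to 4. Apart from not-elevated replicate 2 the groups overlapped. Without that array the median difference of the members was 0.028 and 129 were higher. Quantile normalization, which gives all arrays the same distribution of signals, left a median of 0.0071 with 112 of 200 higher. No direction is given here to the members as a set for that reason.

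In not-elevated replicate 2 the shortfall grew with signal. Its median deviation was -0.26 for the members, -0.17 for the next bin of probe sets (median signal 1522 units), then -0.067 (697 units) and -0.015 (351 units), and it was 0.045 in the dimmest bin (35.6 units). The control probe set for 25S ribosomal RNA read 600.2 units on this array and 73.4 to 147 units on the other not-elevated arrays. It read 95.8 to 191 units on elevated replicates 1 to 3. On elevated replicate 4, where the median deviation of the members was the highest (0.12), it read 366 units. The part of this control or of any step of sample preparation in the low signals was not tested.

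**Figure D2:**
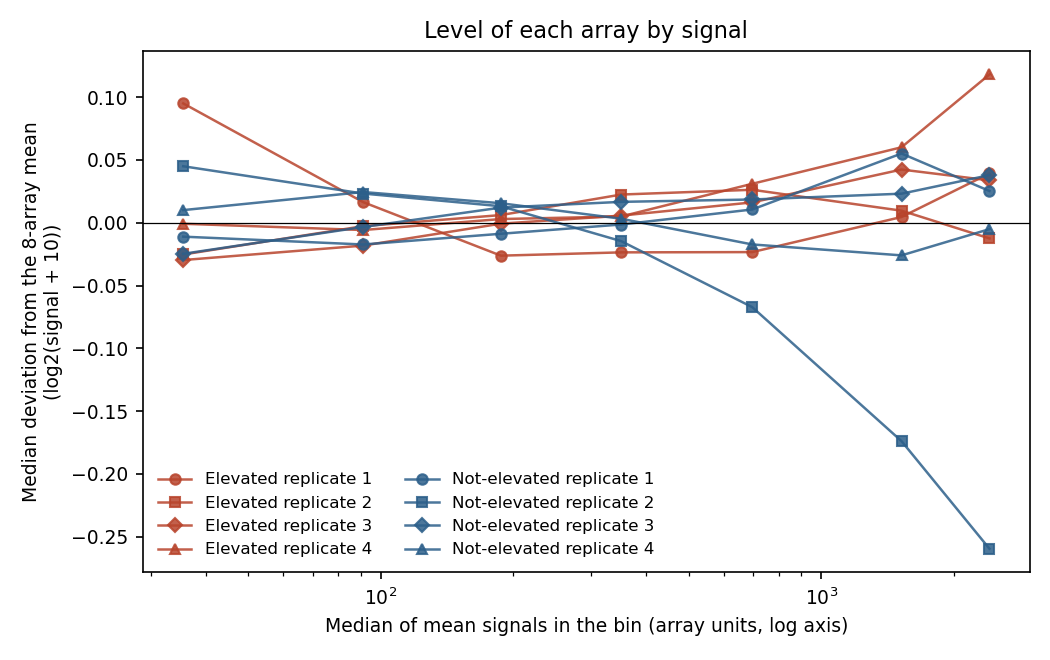
Median deviation of each array from the 8-array mean (y axis, log2(signal + 10)) for probe sets in 7 bins of signal, placed at the median signal of the bin (x axis, array units, log axis), with 1 line per array, elevated arrays in red and not-elevated arrays in blue. The rightmost points are the 200 members, where not-elevated replicate 2 lies at -0.26 and the other 7 arrays between -0.012 and 0.12.

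**Figure D3:**
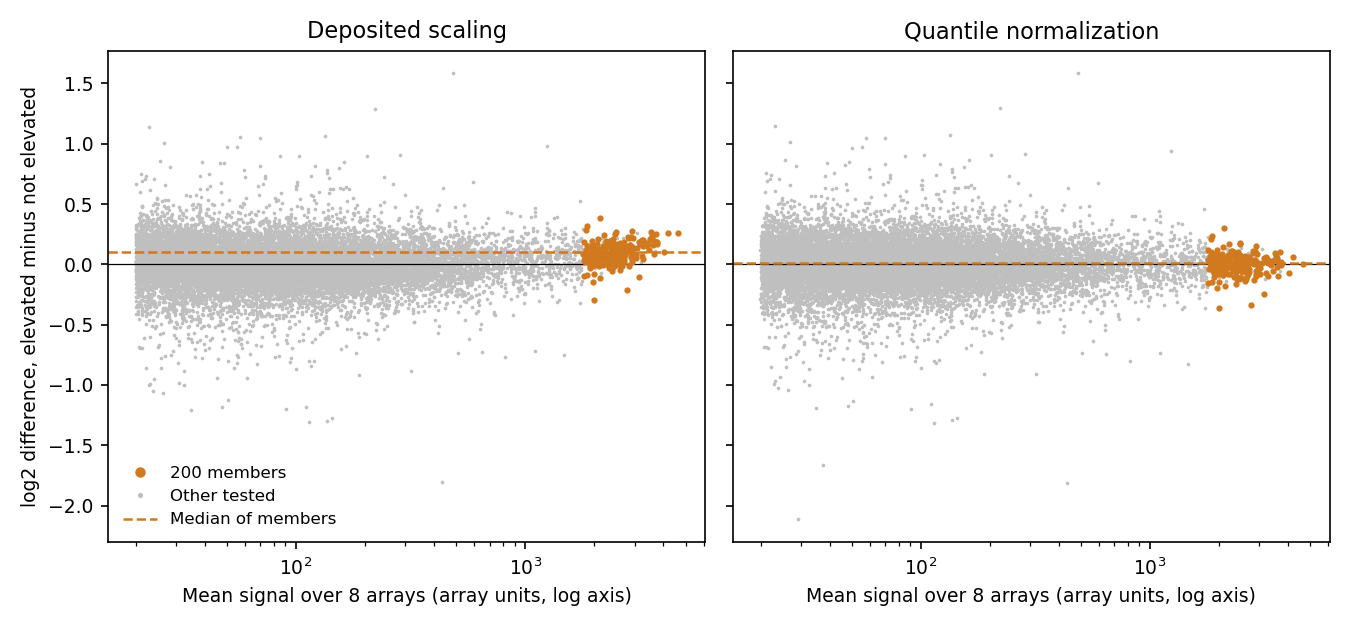
Log2 difference between the groups (y axis, elevated minus not elevated) against mean signal (x axis, array units, log axis) for the tested probe sets, with the 200 members in orange and their median as a dashed line, under the deposited scaling (left) and after quantile normalization (right). The median of the members is 0.10 on the left and 0.0071 on the right.

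The ribosomal members followed this pattern closely. Of the 39 cytosolic ribosomal protein genes 0 were called, 34 read higher in the elevated group and 5 lower, with a median log2 difference of 0.064 (range -0.10 to 0.20), and in 0 of them did the groups fail to overlap. After quantile normalization 17 of the 39 were higher and the median was -0.015. Without not-elevated replicate 2, 19 were higher and the median was -0.0035. The large subunit (21 genes, median 0.067, 0 called), the small subunit (14 genes, median 0.076, 0 called) and the stalk (4 genes, median 0.030, 0 called) had quantile-normalized medians of -0.015, 0.0025 and -0.041, and medians of 0.015, -0.0098 and -0.067 without that array. For comparison, the median over all 15296 probe sets tested was 0.0013 and 0.0027 after quantile normalization. Over the 39 genes the largest difference in size was 0.20, that of AT3G09200 (SE 0.098, limma adjusted p = 0.491), which was 0.042 after quantile normalization and 0.13 without not-elevated replicate 2. For AT3G49910 the difference was 0.13, and 0.043 without that array, and for AT5G20290 it was 0.10, and -0.0073 without it.

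The other ribosomal genes among the 20 highest had small log2 differences. In the large subunit these were AT3G60245 of the L37a family (0.076), AT1G52300 of the L37 family (0.059), AT2G34480 of the L18a family (0.060) and AT1G77940 of the L30 family (-0.032). In the small subunit they were AT5G15200 of the S9 family (0.13) and AT2G41840 of the S2 family (0.0039). AT1G01100, a further stalk protein, averaged 2558 ± 168 units in the elevated group and 2644 ± 245 units in the not-elevated group (SD, n = 4 each). Each of these genes had an SE between 0.086 and 0.097. All 7 moved by over 1.5 times or turned sign without not-elevated replicate 2. The differences were then 0.022 for AT3G60245, -0.013 for AT1G52300, -0.017 for AT2G34480 and -0.084 for AT1G77940. In the same fit AT5G15200 had 0.038, AT2G41840 -0.056 and AT1G01100 -0.11, where AT1G01100 had -0.045 with all arrays.

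Ribosomal proteins are encoded by families of copies, and 8 families had 2 copies among the members with 1 gene. The copies AT5G02870 and AT3G09630 of the L4 family had log2 differences of 0.10 each (SE 0.091 and 0.084). In the L15 family AT4G16720 and AT4G17390 had 0.076 and 0.10, and in the L12 family AT3G53430 and AT2G37190 had 0.056 and 0.12. The L7 family had 0.033 for AT2G01250 and -0.10 for AT2G44120, and the S7 family had 0.064 for AT5G16130 and -0.083 for AT3G02560. These opposite signs rested on not-elevated replicate 2, without which L7 had -0.039 and -0.16 and S7 had -0.012 and -0.16 in the same order of genes. Without that array L4 had 0.045 and 0.057, L15 had -0.0035 and 0.029, and L12 had 0.021 and 0.083. The difference between 2 copies was at most 0.15 in the 8 families with all arrays. Among the stalk genes AT2G27710 and AT2G27720, which neighbour each other in the genome, had 0.051 and 0.0086, and -0.061 and -0.073 without not-elevated replicate 2. The smallest limma adjusted p of the genes named here was 0.639, and whether a probe set also reads the other copy was not tested.

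Chloroplast members were also uncalled. Both chloroplast ribosomal protein genes had close differences, 0.068 for AT2G43030 and 0.077 for AT1G29070, which were -0.0091 and -0.011 after quantile normalization and 0.00028 and 0.018 without not-elevated replicate 2. In the group of thylakoid and pigment genes 3 of 4 were higher and 0 called (median 0.077, or -0.026 after quantile normalization and -0.014 without not-elevated replicate 2). AT1G74470, the geranylgeranyl reductase that makes the phytyl chain of chlorophyll, read 2826, 2391, 2616 and 3024 units in the elevated replicates, against 2259, 2196, 2585 and 2653 units in the not-elevated ones. Its log2 difference was 0.16 ± 0.098 (SE, limma adjusted p = 0.582), and the groups overlapped. AT2G26500, a subunit of the cytochrome b6f complex, averaged 2675 ± 56.1 units in the elevated group and 2614 ± 321 units in the not-elevated group (SD, n = 4 each), a difference of 0.041 that was -0.036 without not-elevated replicate 2. For AT4G01150 the difference was 0.11, and 0.0074 without that array.

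In metabolism, GAPC2, the cytosolic glyceraldehyde-3-phosphate dehydrogenase of glycolysis, read 2461, 2417, 2717 and 2832 units in elevated replicates 1 to 4, against 2372, 2043, 2521 and 2319 units in not-elevated replicates 1 to 4. The groups overlapped, and the log2 difference was 0.17 ± 0.091 (SE, limma adjusted p = 0.524), or 0.11 without not-elevated replicate 2 and 0.078 after quantile normalization. AT3G58610, the ketol-acid reductoisomerase of branched-chain amino acid synthesis, had a difference of 0.17 ± 0.091 (SE). SAMDC, which makes the aminopropyl donor for polyamines, had -0.056 ± 0.096 (SE), or -0.12 without that array and -0.16 after quantile normalization. Of the 5 genes of this group 4 were higher and 0 were called, with a median of 0.091, which was 0.015 after quantile normalization and 0.0098 without not-elevated replicate 2.

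The cell surface group lay highest, with 4 of 4 genes higher in the elevated group and a median of 0.17, although 0 were called. AT4G16980, of the arabinogalactan proteins that decorate the outer face of the plasma membrane, was the 1 member with 1 gene whose groups did not overlap. It read 2286, 2484, 2213 and 2604 units in elevated replicates 1 to 4, against 2135, 1756, 2155 and 2071 units in not-elevated replicates 1 to 4. The lowest elevated array and the highest not-elevated array were close. The log2 difference was 0.24 ± 0.092 (SE, limma adjusted p = 0.340). AT4G29020, a glycine-rich protein, had 0.19, AT2G10940, of the lipid-transfer and seed storage protein family, 0.16, and AT1G78040, of the Ole e 1 family, 0.084. After quantile normalization these 4 differences were 0.17, 0.11, 0.069 and -0.0099, with a median of 0.092, and without not-elevated replicate 2 they were 0.17, 0.11, 0.059 and 0.029, with a median of 0.087.

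The largest lower value belonged to a chaperone. AT3G09440, of the HSP70 proteins that fold new and damaged proteins, read 1566, 1708, 2072 and 1825 units in elevated replicates 1 to 4, against 2224, 1967, 2233 and 2378 units in not-elevated replicates 1 to 4. The groups overlapped only because elevated replicate 3 lay above not-elevated replicate 2. Without not-elevated replicate 2 they did not overlap, which then held for 9.77% of all tested probe sets. The log2 difference was -0.30 ± 0.098 (SE, limma adjusted p = 0.25), and it was -0.37 after quantile normalization and -0.35 without not-elevated replicate 2. AT3G22240, for which no role is given here, read 2968, 2089, 2175 and 3077 units in the elevated replicates, against 2547, 2975, 3386 and 2942 units in the not-elevated ones, a difference of -0.22 ± 0.13 (SE). AT2G25510, of which the same holds, had -0.10, and -0.25 after quantile normalization. The other genes among the 5 lowest, AT2G44120 (-0.10) and AT3G02560 (-0.083), are the ribosomal genes named above.

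**Figure D4:**
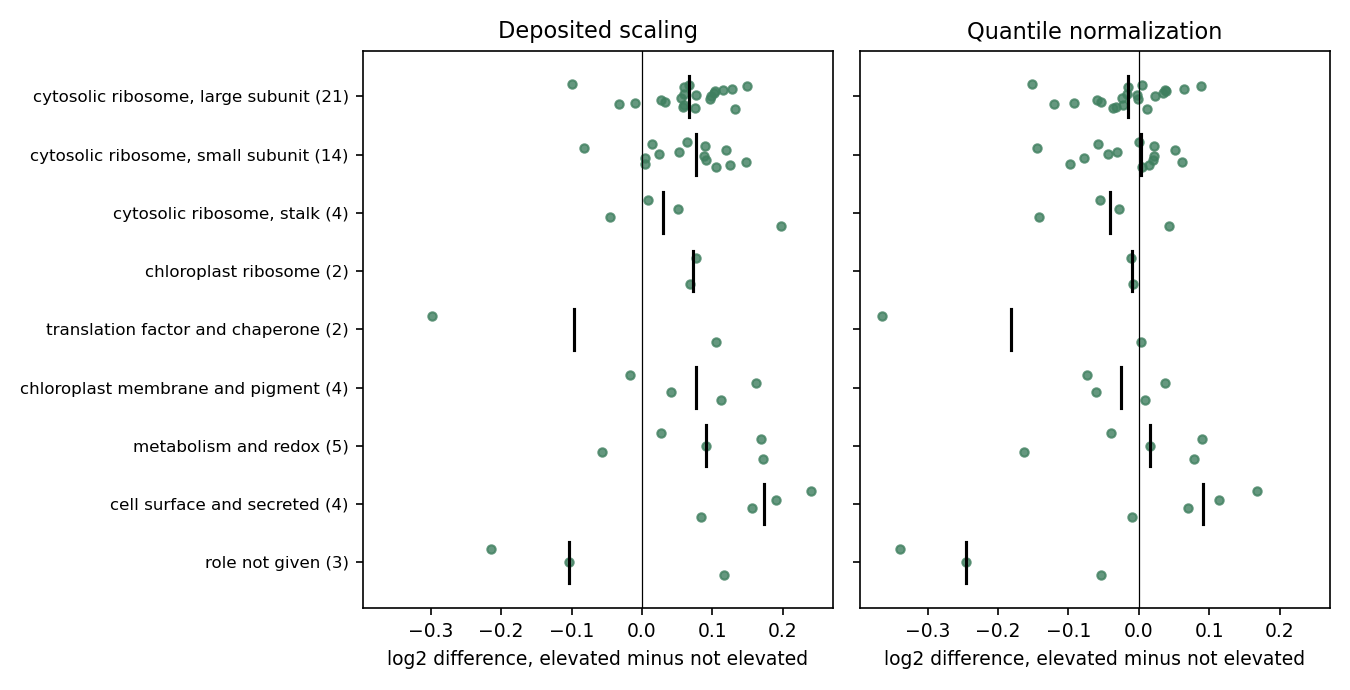
Log2 difference between the groups (x axis, elevated minus not elevated) of the 59 members with 1 gene, by role group with the number of genes in brackets, under the deposited scaling (left) and after quantile normalization (right), with group medians as black lines. The median of the 21 large-subunit genes is 0.067 on the left and -0.015 on the right, and that of the 4 cell surface genes is 0.17 and 0.092.

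Stability between replicates was measured by the pooled within-group SD of log2(signal + 10). Its median over the members was 0.133, against 0.129 for the next 200 probe sets by signal, 0.125 for the next 800 and 0.162 for all tested. With each array centred on its own median for the set, the members had the smallest median of these 4 sets, 0.083, against 0.11, 0.12 and 0.16. Without not-elevated replicate 2 the median of the members was 0.094. Over all 8 arrays 115 members had a coefficient of variation under 10% and 0 had one over 20%.

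The steadiest member with 1 gene was AT2G36160, of the S14 family in the small ribosomal subunit, with 1928, 1859, 1909 and 1906 units in elevated replicates 1 to 4, against 1944, 1760, 1914 and 1911 units in not-elevated replicates 1 to 4. Its coefficient of variation was 3.08%. AT3G60770, of the S13 family, followed with 4.89%, and AT3G53430, AT1G78040 and AT2G37190 had 6.02%, 6.15% and 6.30%. These are the 5 with the smallest within-group SD, from 0.048 to 0.087. At the other end AT3G22240 had a within-group SD of 0.24 and took ranks from 6 to 145. The next were AT5G52650 of the S10 family (0.21), AT5G19510, a subunit of the elongation factor complex that recharges EF-1A (0.20), AT2G27710 of the stalk (0.18) and AT1G15930 of the S12 family (0.18). The ribosomal members thus stand at both ends, with 4 of the 5 smallest and 3 of the 5 largest spreads among the 59, of which 39 are ribosomal.

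**Figure D5:**
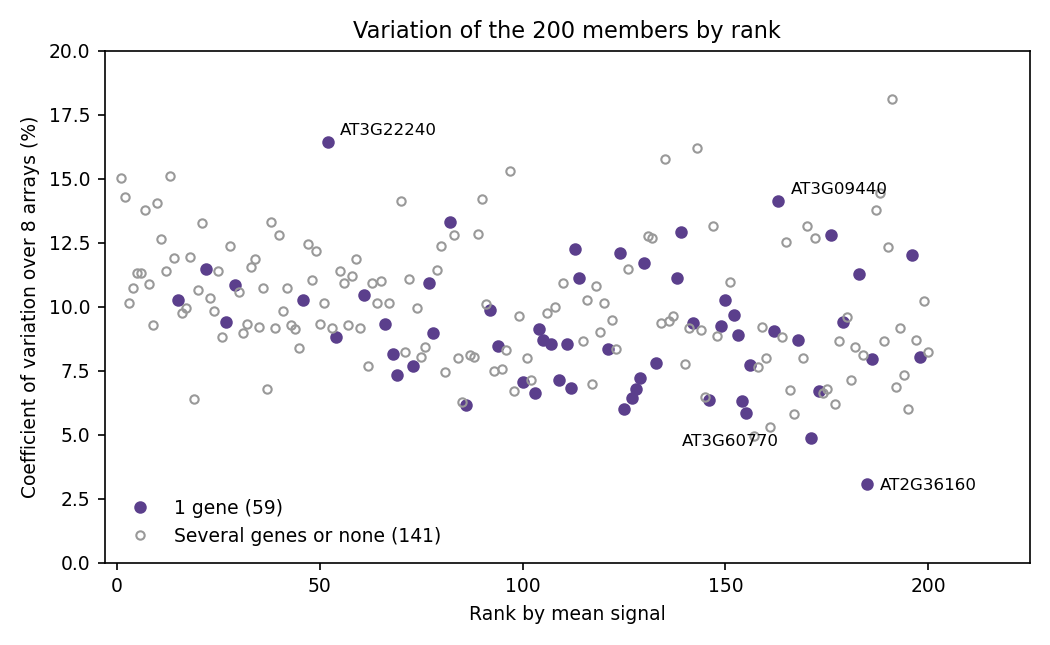
Coefficient of variation over the 8 arrays (y axis, percent) of each of the 200 members against its rank by mean signal (x axis), with the 59 members with 1 gene filled and the other members open. Values lie under 20%, from 3.08% for AT2G36160 to 16.4% for AT3G22240 among the filled points.

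The 12 members with several genes included the member ranked 6, whose probe set the tables give 4 genes, AT1G07920, AT1G07930, AT1G07940 and AT5G60390, which encode the elongation factor EF-1A that brings charged tRNA to the ribosome. It averaged 3954 ± 323 units in the elevated group and 3490 ± 407 units in the not-elevated group (SD, n = 4 each), a log2 difference of 0.18 ± 0.101 (SE), or 0.096 without not-elevated replicate 2 and 0.020 after quantile normalization. The rest of the 12 were given no role here, so any ribosomal proteins among them are not in the counts above. Over the 12 the median difference was 0.062, with 11 higher and 0 called. Without not-elevated replicate 2, 5 were higher (median -0.014), and 6 were after quantile normalization (median -0.0016). The 129 members with no gene in the tables had a median of 0.13, with 115 higher and 0 called, but 91 were higher without that array (median 0.050) and 80 after quantile normalization (median 0.017). They included 6 of the 7 members whose groups did not overlap. Leaving out 1 array can only raise that count of 7, since smaller groups separate more easily. It rose by more than 1.5 times for 6 of the 8 arrays, up to 27 (13.5%, against 11.5% of all tested) without not-elevated replicate 1. The share of all tested rose too, to between 8.41% and 12.3%, against 4.00% to 13.5% of the members.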

How the data were processed

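Biotin-labelled total RNA of 8 samples was read on ATH1 arrays. The authors deposited a linear intensity for each probe set; the tool named in the submitters' processing notes is MAS5, without a version. Each array's mean after trimming 2% at each end was 100 units. Scanner saturation and detection calls were not used here.

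Of 22810 probe sets 64 are controls, and the 15296 others with a mean of at least 20 units were tested, all 200 members among them. Signals were taken as log2(signal + 10) and compared with limma 3.58.1 in R 4.3.3 (lmFit and eBayes with a trend, two-sided, Benjamini-Hochberg over all tested). The test was also run on simulated arrays in which each probe set varied on its own. No shift common to the probe sets of an array was simulated, so that run cannot show how the test handles one. Probe sets were named through the platform table and the RefSeq gene table of TAIR10.1. Members with 1 gene were named if they were among the 20 of highest signal, the 5 largest differences in each direction, the 5 smallest or largest spreads or the 2 of highest signal in a role group, and probe sets with several genes or none if among the 10 highest or past the threshold. Copies in ribosomal families were named after their values were seen. A planned keyword rule for functions matched 6 of the 59 members with 1 gene, so roles were assigned by locus from general knowledge once the members were known, and other genes of each pathway were not counted. Sequences were not used here. Members and lists were chosen with earlier results of these data known. Same-numbered samples did not deviate together, so the numbers were not taken as pairs. Their r ran from -0.18 to -0.037 over all tested and from -0.39 to -0.11 over the members. Alternatives were quantile normalization, pseudocounts of 1 and 50, scaling of arrays to 1 median, a filter at 50 units or none, no trend, array weights, a replicate block and each array left out.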

Additional observations from a re-analysis of the deposited data

Results flagged for a closer look

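Dixon's test picks out the highest or lowest of 4 arrays that lies far from the other 3, which chance does in about 1 of 20 groups. Among 72 groups of named genes 4 were picked out, where 3.6 would be, and each time it was not-elevated replicate 2. AT5G20290, of the small ribosomal subunit, read 2155 units there, against 2876 to 2995 units in the other not-elevated arrays. AT2G41840, also of the small subunit, read 2320 units, against 2710 to 2759 units. AT1G78040, of the Ole e 1 family, read 2147 units, against 2479 to 2515 units. AT2G10940, of the lipid-transfer family, read 1806 units, against 2335 to 2391 units.

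The same array was picked out in 2 of 6 groups of array measures. The members held 14.1% of its summed signal, against 16.2% to 16.6% on the other not-elevated arrays, and their median deviation was -0.26 on the log2(signal + 10) scale, against -0.0051 to 0.038.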

How the results depend on the processing

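The count of 0 members called by limma (20 at an unadjusted p under 0.05) was also 0 under each alternative except array weights, which called 1, a probe set with no gene. With each array left out in turn the members' median log2 difference lay between 0.028 (not-elevated replicate 2 out) and 0.13 (not-elevated replicate 3 out). Quantile normalization changed the sign of 63 of the 200 differences and of 12 of the 36 named genes. The within-group SD of the members had a median of 0.081 after quantile normalization and 0.083 with each array centred on the members, a setting chosen after seeing the data, and ran from 0.094 to 0.14 with 1 array left out. The count of members whose groups did not overlap can only rise when an array is left out. It ran from 8 to 27 with 1 array left out (4.00% to 13.5%, against 8.41% to 12.3% of all tested). The 27 came without not-elevated replicate 1 (11.5% of all tested). Over all probe sets limma called 48, against 30 with quantile normalization, 28 with a pseudocount of 1, 1 without a filter, 9 without a trend, 132 with array weights, and 0 (without not-elevated replicate 3, 1395 at an unadjusted p under 0.05) to 131 (without not-elevated replicate 1) with 1 array left out, each of the 8 such counts being over 1.5 times away from 48. Leaving out replicate 1 of both groups, also chosen after seeing the data, gave 144 calls and 0 members. The fit with the replicate number as a block called 50 probe sets and 0 members and changed no other call here. With the exclusions of the rule unchanged, other settings kept at least 190 of the 200 members. Of the 15 probe sets set aside by the rule, 11 lay above the lowest member and would displace members if kept. The number of arrays limits the precision, and signal over background was not used here.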

Other observations

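Of the 200, the member nearest to the threshold was the probe set ranked 143, singled out after its values were seen and without a gene in the tables. It read 2250, 2334, 2303 and 2692 units in elevated replicates 1 to 4, against 1982, 1623, 1870 and 1854 units in not-elevated replicates 1 to 4, and the groups did not overlap. The log2 difference was 0.38 ± 0.091 (SE, limma adjusted p = 0.113) and 0.30 after quantile normalization (adjusted p = 0.0566). Leaving out not-elevated replicate 2 gave 0.33 (adjusted p = 0.208). With array weights it passed the threshold (adjusted p = 0.0487), and over all alternatives in which it was the nearest member its adjusted p lay between 0.0487 and 0.295.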
